A study of Mus musculus with 28 samples.

Results

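The osteoclast genes are 10 mouse genes that mark or build the bone-resorbing osteoclast: Acp5, Ctsk, Mmp9, Calcr, Ocstamp, Dcstamp, Atp6v0d2, Oscar, Nfatc1 and Tnfrsf11a. They were chosen by name, and both they and the gene lists read beside them were picked with earlier results of these data known. Each member symbol was matched to its Ensembl identifier, and all 10 were found among the 55359 genes present in both count tables. The comparison asks whether genes of bone-resorbing cells were measured together with those of bone matrix in muscle of mice given tamoxifen.

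Bulk RNA sequencing measured polyadenylated RNA of the tibialis anterior, a fast muscle of the lower leg, in mouse models of centronuclear myopathy given tamoxifen, a selective estrogen receptor modulator, or placebo. The 28 mice formed 7 groups of 4 in a Dnm2 cohort and a Bin1 cohort, which were prepared with different library protocols and were never fitted together. The Dnm2 cohort held WT mice on placebo, WT mice on tamoxifen, Dnm2 S619L/+ mice on placebo and Dnm2 S619L/+ mice on tamoxifen. The Bin1 cohort held WT mice on placebo, numbered 5 to 8, Bin1 mck-/- mice on placebo and Bin1 mck-/- mice on tamoxifen, and no WT mice on tamoxifen. Every group was on the C57BL/6N background and was studied at 8 weeks of age. The S619L change of dynamin 2 is heterozygous and is carried by all cells of the animal, osteoclasts included. The Bin1 deletion is driven by Cre recombinase under the muscle creatine kinase (mck) promoter, so it is limited to muscle fibres and leaves the gene in other cells. The labels state neither the sex of the mice nor the tamoxifen dose, and the replicates are separate mice as far as the labels say.

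Total gene counts per mouse ran from 15586333 to 109710886 in WT placebo mice of the Dnm2 cohort and from 20989876 to 46556589 in its other 3 groups. In the Bin1 cohort they ran from 24671835 to 35136327. Levels are given as CPM, counts relative to the library size after TMM scaling, as mean ± SD over the 4 mice of a group. Fold changes are log2 values with their approximate SE from edgeR's quasi-likelihood test, and a gene was called when its p, adjusted by Benjamini-Hochberg over all genes tested, was under 0.05.

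Osteoclasts are large cells with several nuclei that form when precursors of the monocyte and macrophage lineage fuse on bone. The ligand RANKL (Tnfsf11), made by osteoblasts, osteocytes and other cells, binds the receptor RANK (Tnfrsf11a) and turns on the transcription factor Nfatc1, which drives the genes for fusion, acid secretion and matrix digestion. Osteoprotegerin (Tnfrsf11b) is the decoy that captures RANKL. Skeletal muscle holds no osteoclasts in health, but Nfatc1 also works in muscle fibres and T cells, Calcr marks quiescent satellite cells of muscle, and Mmp9 is made by neutrophils and macrophages as well.

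The target gene checked the labels of the Bin1 cohort. Bin1 was at 539.9 ± 15.7 CPM in WT mice, 56.2 ± 5.10 in Bin1 mck-/- mice on placebo and 40.9 ± 6.16 in Bin1 mck-/- mice on tamoxifen (n = 4 each), with every Bin1 mck-/- mouse below every WT mouse. The labelled tissue was checked with 12 genes of skeletal muscle fibres, all 12 of which were tested in both cohorts. Acta1, the actin of skeletal muscle, was between 18154 and 44296 CPM in the 28 mice, so no library lacked muscle RNA.

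Some libraries stood apart from the others of their group. Mouse 4 of the Dnm2 S619L/+ tamoxifen group had lower osteoclast genes than the other 3 mice of its group in 9 of 10 members, and its 20 osteoblast and osteocyte genes summed to 1175 CPM against 7003, 12243 and 15912 CPM in mice 1 to 3. Mouse 2 of the Bin1 mck-/- tamoxifen group was the highest of its group in 9 of 10 members, and its osteoblast and osteocyte genes summed to 6352 CPM against 998, 824 and 183 CPM in mice 1, 3 and 4. Mouse 4 of the Dnm2 S619L/+ placebo group had 8 T cell genes at a sum of 45.2 CPM, against 1.54 to 2.86 CPM in the other 3 mice. Values without these libraries are given for the members and for counts of called genes in several lists, and other values are from all mice. Bone and cartilage genes also varied on placebo. In Bin1 mck-/- placebo mouse 4 the osteoblast and osteocyte genes summed to 2845.5 CPM, against 871 to 1402 CPM in the rest of its group. Its cartilage genes summed to 50.9 CPM against 5.35 to 8.08 CPM. In WT placebo mouse 4 of the Dnm2 cohort they summed to 19.6 CPM against 2.72 to 4.35 CPM.

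The resorption enzymes rose on tamoxifen in WT mice. Acp5, the tartrate-resistant acid phosphatase that stains osteoclasts, was at 1.47, 0.764, 0.474 and 2.30 CPM in WT placebo mice 1 to 4 of the Dnm2 cohort. On tamoxifen it was at 284, 487, 75.2 and 163 CPM in WT mice 1 to 4, so that the groups did not overlap. Its log2 fold change was 7.47 ± 1.02 (SE, adjusted p = 0.000291 by edgeR; higher in 4 of 4 mice), from a mean of 1.25 ± 0.814 to 253 ± 178 CPM.

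Ctsk, the collagen-cleaving protease cathepsin K, was at 7.26, 6.34, 4.98 and 7.24 CPM in WT placebo mice 1 to 4 and at 421, 637, 127 and 238 CPM in WT tamoxifen mice 1 to 4. Every treated mouse was above every placebo mouse, and the log2 fold change was 5.75 ± 0.74 (SE, adjusted p = 0.000253 by edgeR). Mmp9, a gelatinase that osteoclasts secrete, was at 1.52, 0.792, 0.316 and 0.469 CPM in WT placebo mice 1 to 4 and at 222, 349, 51.7 and 122 CPM in WT tamoxifen mice 1 to 4. The groups were again apart, with a log2 fold change of 7.61 ± 1.0 (SE, adjusted p = 0.000268 by edgeR).

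Atp6v0d2, a subunit of the proton pump that acidifies the resorption pit and also a gene of fusion, was at 0.132, 0.113, 0.0791 and 0.134 CPM in WT placebo mice 1 to 4. In WT tamoxifen mice 1 to 4 it was at 26.9, 42.1, 6.73 and 16.1 CPM. No placebo mouse reached the lowest treated mouse, and the log2 fold change was 6.99 ± 1.02 (SE, adjusted p = 0.000291 by edgeR).

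Dcstamp and Ocstamp encode membrane proteins needed for precursors to fuse. Dcstamp had 2, 2, 0 and 2 counts in WT placebo mice 1 to 4 and 177, 191, 19 and 73 counts in WT tamoxifen mice 1 to 4, which is 0.895 to 5.73 CPM in the treated mice. Its log2 fold change was 5.17 ± 1.09 (SE, adjusted p = 0.000772 by edgeR), a value that depends on the prior count because the placebo counts were so few. Ocstamp went from 0.0791 to 0.416 CPM in WT placebo mice to 1.08 to 3.54 CPM in WT tamoxifen mice, and its log2 fold change was 2.66 ± 0.52 (SE, adjusted p = 0.00121 by edgeR). Both genes were higher in 4 of 4 treated mice than in any placebo mouse.

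The receptors fell into genes that rose and a gene that was not called. Tnfrsf11a, the RANK receptor, was at 1.196, 0.934, 0.474 and 0.983 CPM in WT placebo mice 1 to 4 and at 5.43, 8.07, 1.98 and 3.62 CPM in WT tamoxifen mice 1 to 4. Every treated mouse was above every placebo mouse, and the log2 fold change was 2.28 ± 0.51 (SE, adjusted p = 0.0039 by edgeR). Oscar, a costimulatory receptor of osteoclast precursors, was at 0.0791 to 0.246 CPM on placebo and at 0.847 to 6.45 CPM on tamoxifen, with a log2 fold change of 3.81 ± 0.71 (SE, adjusted p = 0.000833 by edgeR; higher in 4 of 4 mice). Calcr, the calcitonin receptor, was at 0.872, 0.877, 1.27 and 1.16 CPM in WT placebo mice 1 to 4 and at 2.05, 2.79, 1.22 and 1.21 CPM in WT tamoxifen mice 1 to 4. Treated mice 3 and 4 lay within the placebo range, and the log2 fold change was 0.80 ± 0.45 (SE, adjusted p = 0.178 by edgeR).

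Nfatc1, the transcription factor at the head of the osteoclast program, was abundant in every group and was not called in any comparison. It was at 53.4, 52.9, 46.3 and 103 CPM in WT placebo mice 1 to 4 and at 60.5, 65.6, 54.7 and 57.4 CPM in WT tamoxifen mice 1 to 4. The groups overlapped, and the log2 fold change was -0.10 ± 0.19 (SE, adjusted p = 0.725 by edgeR). It was 0.22 without WT placebo mouse 4. Over the 7 groups its mean ran from 46.1 ± 6.84 CPM in Dnm2 S619L/+ placebo mice to 63.8 ± 26.1 CPM in WT placebo mice of the Dnm2 cohort.

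In all, 8 of 10 members were called higher by edgeR on tamoxifen in WT mice, where 15.8% of all genes tested were called higher. The groups did not overlap for the same number, 8 of 10 members, against 17.6% of all genes tested. The median log2 fold change was 4.49 over the members and -0.04 over all genes tested. Bulk RNA cannot tell more osteoclast-like cells apart from more RNA of these genes in each cell.

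**Figure D1:**
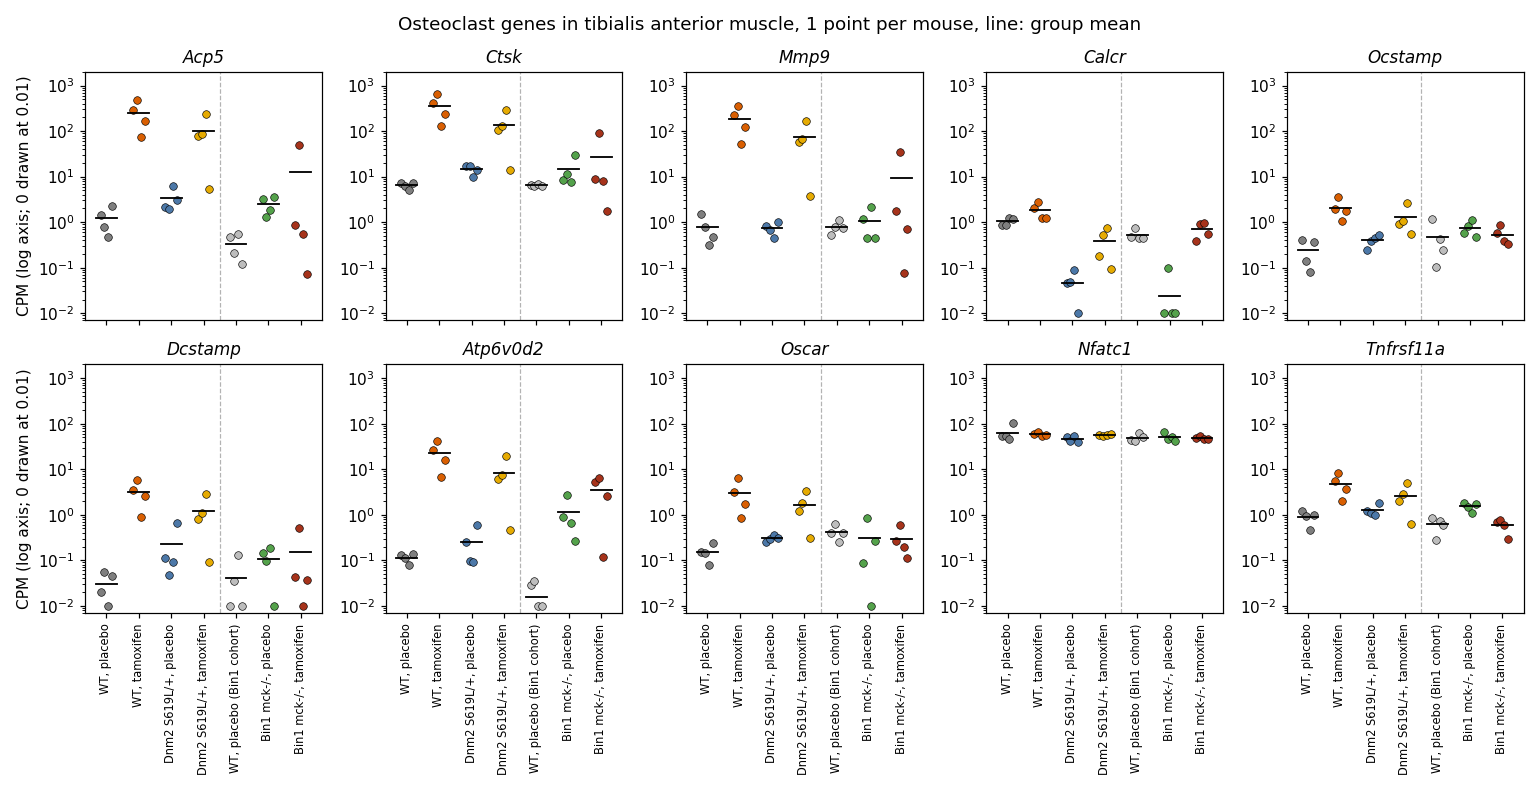
CPM of each osteoclast gene in the 28 mice, on a log axis with values of 0 drawn at 0.01. Each point is a mouse, each line a group mean, and the dashed line divides the Dnm2 cohort from the Bin1 cohort, which were scaled separately. Acp5 in WT mice of the Dnm2 cohort lies between 0.474 and 2.30 CPM on placebo and between 75.2 and 487 CPM on tamoxifen, while Nfatc1 stays within 39.7 and 103 CPM in all groups.

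Levels of the members were set side by side per kilobase of exon, with exon lengths from an annotation of another release than the counts, so these values are approximate. In WT tamoxifen mice the mean level was 235 CPM per kilobase for Ctsk, 124 for Acp5, 52.6 for Mmp9, 8.45 for Atp6v0d2 and 7.97 for Nfatc1. It was 1.65 CPM per kilobase for Oscar, 1.19 for Dcstamp, 0.798 for Tnfrsf11a, 0.570 for Ocstamp and 0.465 for Calcr. In WT placebo mice of the Dnm2 cohort the order was different, with Nfatc1 at 8.54 and Ctsk at 4.27 CPM per kilobase, and every other member under 1. The spread over mice was wide on tamoxifen, from 37.0 to 240.1 CPM per kilobase for Acp5 alone, so neighbours in this order overlapped except Nfatc1 and Oscar.

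In Dnm2 S619L/+ mice the same enzymes were high on tamoxifen in 3 of the 4 mice. Acp5 was at 2.12, 1.97, 6.25 and 3.13 CPM in placebo mice 1 to 4 and at 78.8, 85.1, 240.3 and 5.43 CPM in tamoxifen mice 1 to 4. Mouse 4 on tamoxifen lay within the placebo range, and the log2 fold change over all 4 mice was 4.92 ± 0.91 (SE, adjusted p = 0.00626 by edgeR). Without mouse 4 it was 5.32 ± 0.70 (SE, adjusted p = 0.000185 by edgeR).

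Ctsk was at 16.8, 16.9, 9.73 and 14.2 CPM in Dnm2 S619L/+ placebo mice 1 to 4 and at 105, 131, 288 and 14.04 CPM in tamoxifen mice 1 to 4. Mouse 4 again lay among the placebo mice, with a log2 fold change of 3.22 ± 0.66 (SE, adjusted p = 0.01 by edgeR) over all mice and 3.59 ± 0.47 without mouse 4 (adjusted p = 0.000183). Mmp9 was at 0.834, 0.672, 0.453 and 0.989 CPM in placebo mice 1 to 4 and at 57.1, 66.3, 170.7 and 3.70 CPM in tamoxifen mice 1 to 4. Here mouse 4 was above every placebo mouse, though far below the other 3, and the log2 fold change was 6.52 ± 0.99 (SE, adjusted p = 0.0026 by edgeR), or 6.92 ± 0.72 without it (adjusted p = 2.4e-05).

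Atp6v0d2 was at 0.0905 to 0.594 CPM in Dnm2 S619L/+ placebo mice and at 6.04, 7.29, 19.1 and 0.463 CPM in tamoxifen mice 1 to 4, with a log2 fold change of 4.67 ± 0.94 (SE, adjusted p = 0.00719 by edgeR), or 5.07 ± 0.69 without mouse 4 (adjusted p = 0.000135). Oscar was at 0.248 to 0.362 CPM on placebo and at 1.2, 1.79, 3.37 and 0.309 CPM on tamoxifen, with a log2 fold change of 2.26 ± 0.69 (SE, adjusted p = 0.0393 by edgeR). For both genes mouse 4 on tamoxifen lay within the placebo range. The call of Oscar was lost when any of 9 single mice was left out, with adjusted p up to 0.149 without tamoxifen mouse 3, and was 0.00462 without tamoxifen mouse 4.

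Calcr was near 0 in Dnm2 S619L/+ placebo mice 1 to 4, with 2, 1, 2 and 0 counts, and had 6, 13, 19 and 3 counts in tamoxifen mice 1 to 4. All 4 treated mice were above all 4 placebo mice, at 0.184, 0.518, 0.762 and 0.0926 CPM, and the log2 fold change was 2.08 ± 0.76 (SE, adjusted p = 0.0233 by edgeR). The call was lost without placebo mouse 1, 2 or 4 or without tamoxifen mouse 2 or 3, with adjusted p up to 0.0931 among these, and adjusted p was 0.00299 without tamoxifen mouse 4.

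The other 4 members were not called in this comparison. Their log2 fold changes were 1.58 ± 0.53 for Ocstamp (SE, adjusted p = 0.0562 by edgeR), 2.11 ± 0.88 for Dcstamp (adjusted p = 0.109), 0.99 ± 0.51 for Tnfrsf11a (adjusted p = 0.223) and 0.29 ± 0.19 for Nfatc1 (adjusted p = 0.375). Tamoxifen mice 1 to 3 were each above every placebo mouse in 10 of 10 members, and mouse 4 in 4 of 10. Without mouse 4, edgeR called 9 of 10 members higher, all but Nfatc1, and 1594 of all 15662 genes tested.

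With all mice, 6 of 10 members were called higher by edgeR on tamoxifen in Dnm2 S619L/+ mice, where 5.22% of all genes tested were called higher. The groups did not overlap for 4 of 10 members, against 4.02% of all genes tested. When only the placebo and tamoxifen groups of Dnm2 S619L/+ mice were fitted, 0 of the 8 members tested were called, with adjusted p from 0.0563 for Mmp9, and over all genes only 20 were called higher and 10 lower. The median log2 fold change was 2.18 over the members and -0.03 over all genes tested.

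The tamoxifen effects of WT and Dnm2 S619L/+ mice were compared by their interaction. Of the 10 members 0 were called by edgeR, where 0.259% of all genes tested were called either way, and DESeq2 also called 0. An unadjusted p under 0.05 by edgeR was found for 4 members and for 2089 of all 15439 genes tested. The estimates were -2.55 ± 1.17 for Acp5 (log2, SE, adjusted p = 0.356 by edgeR), -2.54 ± 0.87 for Ctsk (adjusted p = 0.247), -3.05 ± 1.5 for Dcstamp (adjusted p = 0.257) and 1.28 ± 0.92 for Calcr (adjusted p = 0.307). Acp5, Ctsk, Dcstamp and Calcr were the 4 with an unadjusted p under 0.05. No member passed the adjusted threshold, which does not show that the effects were equal.

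**Figure D2:**
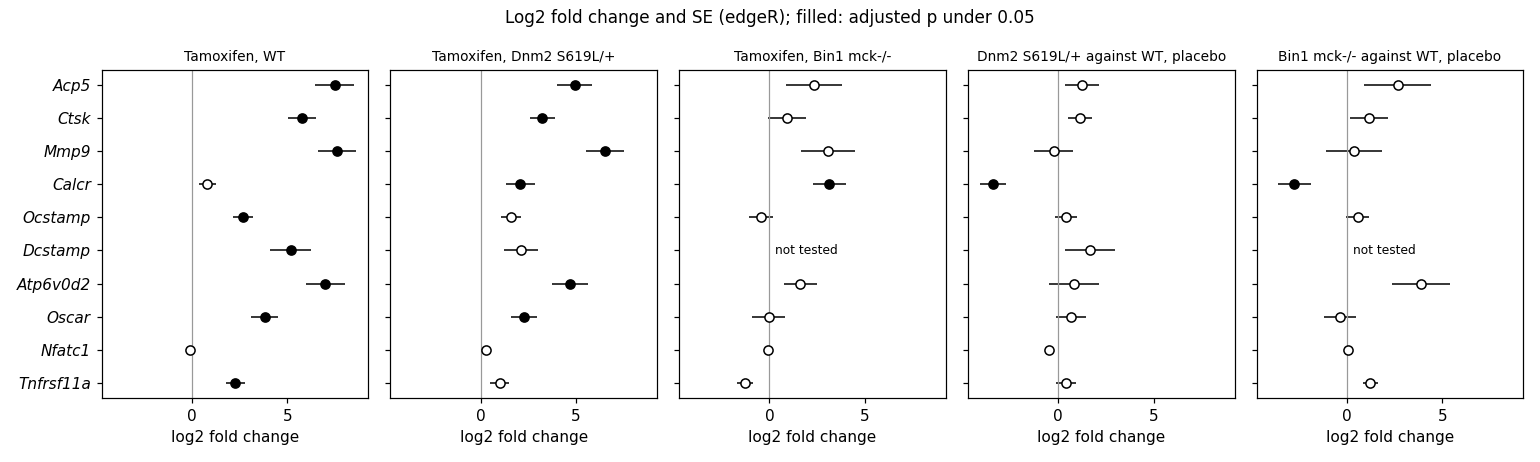
Log2 fold change with its SE for each osteoclast gene in 5 comparisons, filled where edgeR's adjusted p was under 0.05. On tamoxifen 8 members are filled in WT mice, 6 in Dnm2 S619L/+ mice and only Calcr in Bin1 mck-/- mice, while Calcr alone is filled, below 0, in both comparisons of mutant with WT mice on placebo.

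The mutant mice were also compared with WT mice on placebo. The WT placebo mice of the Dnm2 cohort are the controls of this comparison and of tamoxifen in WT mice, and the mutant placebo mice of each cohort are also the controls of their tamoxifen group, so these estimates share mice and are not independent. Calcr was the member that differed in both models. It had 86, 31, 16 and 52 counts in WT placebo mice 1 to 4 of the Dnm2 cohort against 2, 1, 2 and 0 in Dnm2 S619L/+ placebo mice. Its log2 fold change was -3.40 ± 0.69 (SE, adjusted p = 0.000426 by edgeR; lower in 4 of 4 mice), from 1.04 ± 0.200 to 0.0459 ± 0.0370 CPM.

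In the Bin1 cohort Calcr had 17, 21, 14 and 15 counts in WT mice 5 to 8 and 0, 3, 0 and 0 counts in Bin1 mck-/- placebo mice 1 to 4. The groups did not overlap. With 3 counts in the mutant group in all, the level was 23.2 times higher in WT mice, with an exact 95% counting interval of 7.61 to 115 that covers counting error only. The fitted log2 fold change was -2.75 ± 0.88 (SE, adjusted p = 0.0186 by edgeR). The call was lost without placebo mouse 1 or 4 of Bin1 mck-/- or without WT mouse 6 or 8, with adjusted p of 0.0535 to 0.0803.

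On tamoxifen Calcr had 9, 30, 25 and 15 counts in Bin1 mck-/- mice 1 to 4, or 0.392, 0.910, 0.970 and 0.548 CPM. Every treated mouse was above every placebo mouse of that genotype, and the values overlapped the 0.448 to 0.731 CPM of WT mice. The level was 32.4 times that on placebo, with an exact 95% counting interval of 10.7 to 160. The log2 fold change was 3.14 ± 0.87 (SE, adjusted p = 0.009 by edgeR), and it was 2.998 without mouse 2, which stood apart (edgeR, adjusted p = 0.0102). The call was lost when the mouse number was a replicate block (adjusted p = 0.0586 by edgeR). Whether these counts came from osteoclast-like cells, satellite cells or others was not tested.

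No other member was called in the placebo comparisons. Over the members tested, 1 of 10 was called in Dnm2 S619L/+ against WT mice, where edgeR called 21.9% of all genes either way, and 1 of 9 in Bin1 mck-/- against WT mice, where it called 2.61%. Acp5 was at 0.475, 0.209, 0.544 and 0.121 CPM in WT mice 5 to 8 and at 3.28, 1.29, 1.84 and 3.60 CPM in Bin1 mck-/- placebo mice 1 to 4. All 4 mutant mice were above all 4 WT mice, but the shared spread of the cohort was set in part by Bin1 mck-/- tamoxifen mouse 2, and the log2 fold change was 2.67 ± 1.75 (SE, adjusted p = 0.399 by edgeR). Without that mouse it was 2.67 with an adjusted p of 0.0186 (edgeR), and 0.00429 when only these groups were fitted.

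Atp6v0d2 had 1, 1, 0 and 0 counts in WT mice 5 to 8 and 30, 84, 21 and 10 counts in Bin1 mck-/- placebo mice 1 to 4. All 4 mutant mice were higher, at 0.266 to 2.70 CPM, and the level was 69.8 times that of WT mice with an exact 95% counting interval of 19.0 to 581. The fitted log2 fold change of 3.89 ± 1.51 missed the threshold (SE, adjusted p = 0.0533 by edgeR), and passed it without tamoxifen mouse 3 (adjusted p = 0.00771) or mouse 2 (adjusted p = 0.0391). Tnfrsf11a was at 0.278 to 0.839 CPM in WT mice and at 1.08 to 1.78 CPM in Bin1 mck-/- placebo mice, which did not overlap, with a log2 fold change of 1.23 ± 0.41 (SE, adjusted p = 0.0933 by edgeR).

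In Dnm2 S619L/+ placebo mice none of the enzymes was called. The mean of Acp5 was 2.69 times and that of Ctsk 2.23 times the WT mean. Acp5 had a log2 fold change of 1.24 ± 0.89 (SE, adjusted p = 0.32 by edgeR) and Ctsk of 1.13 ± 0.63 (adjusted p = 0.204), although all 4 mutant mice were above all 4 WT mice for Ctsk. When only these groups were fitted, Ctsk was called (adjusted p = 0.00462 by edgeR). Mmp9 had -0.24 ± 1.03 (SE, adjusted p = 0.886 by edgeR) and Nfatc1 -0.47 ± 0.19 (adjusted p = 0.0908). Without WT placebo mouse 4, Nfatc1 was at -0.14 (adjusted p = 0.373 by edgeR).

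In Bin1 mck-/- mice on tamoxifen Acp5, Ctsk and Mmp9 were high in a single mouse. Acp5 was at 0.872, 49.96, 0.543 and 0.0731 CPM in mice 1 to 4, so that mouse 2 was above every placebo mouse and the other 3 were below them all. Ctsk was at 9.02, 89.6, 8.07 and 1.75 CPM and Mmp9 at 1.79, 34.0, 0.0776 and 0.694 CPM in the same mice, with mouse 2 highest in both. The log2 fold changes over 4 mice were 2.34 ± 1.47 for Acp5 (SE, adjusted p = 0.397 by edgeR), 0.91 ± 0.99 for Ctsk (adjusted p = 0.651) and 3.06 ± 1.41 for Mmp9 (adjusted p = 0.244).

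Atp6v0d2 was different, at 5.27, 6.31, 0.116 and 2.63 CPM in mice 1 to 4, so that mice 1 and 2 were above every placebo mouse. Its log2 fold change was 1.62 (adjusted p = 0.294 by edgeR) and stayed positive with any mouse left out, at 1.2 to 2.45.

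Without mouse 2 the estimates of Acp5, Ctsk and Mmp9 turned negative. Acp5 was then lower on tamoxifen, with a log2 fold change of -2.22 ± 0.65 (SE, adjusted p = 0.0382 by edgeR), while Ctsk was at -1.20 ± 0.60 (adjusted p = 0.227) and Mmp9 at -0.29 ± 0.73 (adjusted p = 0.823). Tnfrsf11a was at 0.697, 0.758, 0.582 and 0.292 CPM on tamoxifen, below every Bin1 mck-/- placebo mouse, with a log2 fold change of -1.30 ± 0.42 (SE, adjusted p = 0.0787 by edgeR). With all mice, 1 of the 9 members tested was called, Calcr, where edgeR called 3.13% of all genes either way. Without mouse 2 there were 2, Calcr higher and Acp5 lower, where 590 of all 15097 genes tested were called higher and 663 lower.

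Dcstamp failed the filter on low counts in the Bin1 cohort, with 5 counts over the WT group, 14 over the Bin1 mck-/- placebo group and 19 over the Bin1 mck-/- tamoxifen group, 17 of them in mouse 2. Its mean CPM differed by 0.0679 between Bin1 mck-/- and WT mice on placebo (n = 4 each, exact two-sided permutation test, p = 0.286) and by 0.0403 between tamoxifen and placebo (p = 0.943, same exact test). The smallest p these groups allow is 0.0286. With so few counts no difference was detected, which does not show that the groups were equal. Ocstamp, Oscar and Nfatc1 were not called in either comparison of this cohort.

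The order of mice within the treated groups was shared by most members. In WT tamoxifen mice the order was mouse 2, 1, 4 and 3 from high to low in 9 of 10 members, Calcr being the exception. In Dnm2 S619L/+ tamoxifen mice it was mouse 3, 2, 1 and 4 in 9 of 10, Nfatc1 being the exception. In Bin1 mck-/- tamoxifen mice the commonest order, mouse 2, 1, 3 and 4, held for 6 of 10. In WT placebo mice of the Dnm2 cohort the commonest order held for 4 of 10 members. The members of a library share its depth and dissection, so this is a description of the libraries and not a test.

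Ratios between members, computed after the levels were seen, varied less than the levels in treated mice. The counts of Mmp9 over those of Acp5 were 0.782, 0.716, 0.688 and 0.746 in WT tamoxifen mice 1 to 4 and 0.724, 0.779, 0.710 and 0.682 in Dnm2 S619L/+ tamoxifen mice 1 to 4. Over these 8 mice the ratio thus ran from 0.682 to 0.782 while Acp5 itself ran from 5.43 to 487 CPM. Mouse 4 of the Dnm2 S619L/+ tamoxifen group, with 176 counts of Acp5, had the lowest ratio of the 8, 0.682, next to 0.688 in WT tamoxifen mouse 3.

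Atp6v0d2 over Acp5 ran from 0.0766 to 0.0983 in the same 8 mice, and Ctsk over Acp5 from 1.2 to 2.59. On placebo, where counts were few, Mmp9 over Acp5 ran from 0.204 to 1.04 in WT mice and from 0.0725 to 0.394 in Dnm2 S619L/+ mice of the Dnm2 cohort. In the Bin1 cohort mouse 2 on tamoxifen had 1647 counts of Acp5 and 1122 of Mmp9, a ratio of 0.681. The other 3 mice of that group had 2 to 20 counts of Acp5 and ratios of 0.143 to 9.50. Atp6v0d2 over Acp5 was 6.05, 0.126, 0.214 and 36.0 in mice 1 to 4 of that group, so it was not steady there.

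By a fixed rule, the 5 genes whose deviations from the group means were most like those of the members' mean log2 CPM were named. Over the 16 mice of the Dnm2 cohort and 11361 genes compared, they were Src (r = 0.966), Slc37a2 (r = 0.964), Gpr137b (r = 0.959), Scpep1 (r = 0.952) and Bcl9 (r = 0.9498). The same genes had r of 0.712, 0.777, 0.734, 0.940 and 0.684 over the 12 mice of the Bin1 cohort. These values describe mice that share library and dissection, and mice that stood apart weigh heavily in them. Src was at 14.6, 17.4, 7.34 and 9.77 CPM in WT tamoxifen mice 1 to 4 and at 2.69 to 3.83 CPM in WT placebo mice.

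A list of 28 other genes of osteoclast formation and function, none of them a member, was read in the same fits. On tamoxifen in WT mice edgeR called 19 of its 27 genes tested higher, beside 15.8% of all genes, and 1 lower. In Dnm2 S619L/+ mice 6 were called higher, beside 5.22% of all genes, and 0 lower. Its median log2 fold change was 1.41 in WT mice and 0.51 in Dnm2 S619L/+ mice, against -0.04 and -0.03 over all genes tested. Without Dnm2 S619L/+ tamoxifen mouse 4, the count in that genotype was 12 higher. The list's summed level was 1067, 1309, 721 and 814 CPM in WT tamoxifen mice 1 to 4 and 331 to 357 CPM in WT placebo mice.

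Tnfsf11, which encodes RANKL, was at 0, 0.0283, 0 and 0.0223 CPM in WT placebo mice 1 to 4 and at 4.40, 5.04, 1.93 and 4.18 CPM in WT tamoxifen mice. Each treated mouse was far above the placebo mice, and its fitted log2 fold change was 5.83 ± 1.31 (SE, adjusted p = 0.000516 by edgeR), which depends on the prior count because the placebo mice had at most 1 count each. In Dnm2 S619L/+ tamoxifen mice 1 to 4 it was at 1.13, 2.99, 4.25 and 0.0617 CPM, again lowest in mouse 4, with a log2 fold change of 4.36 ± 1.14 (SE, adjusted p = 0.011 by edgeR). In Bin1 mck-/- tamoxifen mice it had counts in mouse 2 alone, at 0.819 CPM. Tnfrsf11b, the decoy receptor for RANKL, was at 0.112 to 0.264 CPM in WT placebo mice and 0.188 to 0.720 CPM in WT tamoxifen mice, with a log2 fold change of 1.41 ± 0.51 (SE, adjusted p = 0.0227 by edgeR) in WT mice and -0.83 ± 0.52 (adjusted p = 0.257) in Dnm2 S619L/+ mice. WT tamoxifen mouse 3 lay within the placebo range.

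The 3 list genes with the smallest p on tamoxifen in WT mice were Tnfsf11, Mmp14, a membrane-bound matrix protease also made by fibroblasts and osteoblasts, and Slc9b2, a sodium and proton exchanger of osteoclasts. Mmp14, which had the highest mean CPM of the list over the Dnm2 cohort as a whole, was at 423, 570, 255 and 304 CPM in WT tamoxifen mice 1 to 4 against 9.65 to 16.4 CPM on placebo, with a log2 fold change of 4.94 ± 0.62 (SE, adjusted p = 0.00025 by edgeR). Slc9b2 was at 13.4, 20.3, 3.01 and 6.83 CPM against 0.156 to 0.274 CPM, with a log2 fold change of 5.31 ± 0.81 (SE, adjusted p = 0.000372 by edgeR). The treated mice were above the placebo mice in each case, and mouse 2 was the highest as for the members. Not every list gene rose in WT mice. Ostm1 was at 32.4 to 36.9 CPM on tamoxifen against 38.8 to 43.4 CPM on placebo. From placebo to tamoxifen, mean CPM went from 20.8 to 16.4 for Mitf, 23.7 to 20.5 for Traf6 and 11.6 to 11.2 for Car2. The groups overlapped for Mitf, Traf6 and Car2. In Dnm2 S619L/+ mice Mmp14 had 3.45 ± 0.58 (SE, adjusted p = 0.00387 by edgeR) and Jdp2, a transcription factor of osteoclast precursors, 1.31 ± 0.28 (adjusted p = 0.0122).

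On placebo, 4 genes of the list were called higher and 3 lower in Dnm2 S619L/+ against WT mice, and 2 and 2 without Dnm2 S619L/+ placebo mouse 4, where edgeR called 21.9% of all genes either way with all mice. Itgav, an integrin subunit that many cells carry, had a log2 fold change of 1.32 ± 0.18 (SE, adjusted p = 0.000178 by edgeR), and Car2, the carbonic anhydrase that supplies protons, of -1.37 ± 0.22 (adjusted p = 0.000673). In Bin1 mck-/- against WT mice 1 was higher, Itgav, at 0.67 ± 0.16 (SE, adjusted p = 0.0444 by edgeR), and 0 were lower. On tamoxifen in Bin1 mck-/- mice edgeR called 0 of 26 tested, and 3 lower without mouse 2. Ostm1, which had the highest mean CPM of the list over the Bin1 cohort as a whole, was at 27.2 to 39.3 CPM in its 12 mice.

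The bone-forming lineage was read from 20 genes of osteoblasts and osteocytes. This list was chosen with earlier results of these data known, so its counts are a description and no independent support. EdgeR called 16 of 18 tested higher and 0 lower on tamoxifen in WT mice, beside 15.8% of all genes called higher. In Dnm2 S619L/+ mice it also called 16 higher and 0 lower, with or without mouse 4. With all mice, 5.22% of all genes were called higher in that genotype. The median log2 fold change of the list was 4.67 in WT mice and 3.56 in Dnm2 S619L/+ mice. Its summed level was 14091, 20618, 9578 and 13357 CPM in WT tamoxifen mice 1 to 4 against 592, 473, 378 and 924 CPM in WT placebo mice 1 to 4. Col1a2, a chain of type I collagen that fibroblasts of muscle also make, had the highest mean CPM of the list over each cohort as a whole and was at 4509 to 9271 CPM in WT tamoxifen mice.

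Sp7, the transcription factor osterix that commits cells to bone formation, was at 22.4, 30.0, 14.5 and 24.5 CPM in WT tamoxifen mice 1 to 4 and at 0 to 0.179 CPM in WT placebo mice. It was at 9.57, 15.3, 25.3 and 0.864 CPM in Dnm2 S619L/+ tamoxifen mice 1 to 4, in which mouse 4 was the lowest as for the osteoclast genes. Its log2 fold change was 7.37 ± 0.91 in WT mice (SE, adjusted p = 0.000177 by edgeR) and 7.23 ± 1.1 in Dnm2 S619L/+ mice (adjusted p = 0.000857). Tnn, a tenascin of bone, had 11.06 ± 1.11 (SE, adjusted p = 9.05e-05 by edgeR) and 10.31 ± 1.14 (adjusted p = 0.000451), and Mmp13, the collagenase of osteoblasts, 10.42 ± 1.2 (adjusted p = 0.000177) and 10.09 ± 1.21 (adjusted p = 0.000646). The counts of Tnn over those of Acp5 ran from 1.45 to 4.41 in the 8 treated mice of the Dnm2 cohort, and those of Sp7 over Acp5 from 0.0615 to 0.193.

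In the Bin1 cohort the bone-forming genes followed the same mouse. Sp7 was at 0.261, 13.0, 0 and 0 CPM and Tnn at 1.09, 171, 0 and 0 CPM in Bin1 mck-/- tamoxifen mice 1 to 4. Both genes were at or near 0 in the other groups of that cohort, with Tnn at 0 in all 4 WT mice. EdgeR called 0 of 11 tested on tamoxifen, and without mouse 2 it called 0 higher and 2 lower. Mepe, an osteocyte matrix gene, was at 0 in every mouse of the Bin1 cohort.

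**Figure D3:**
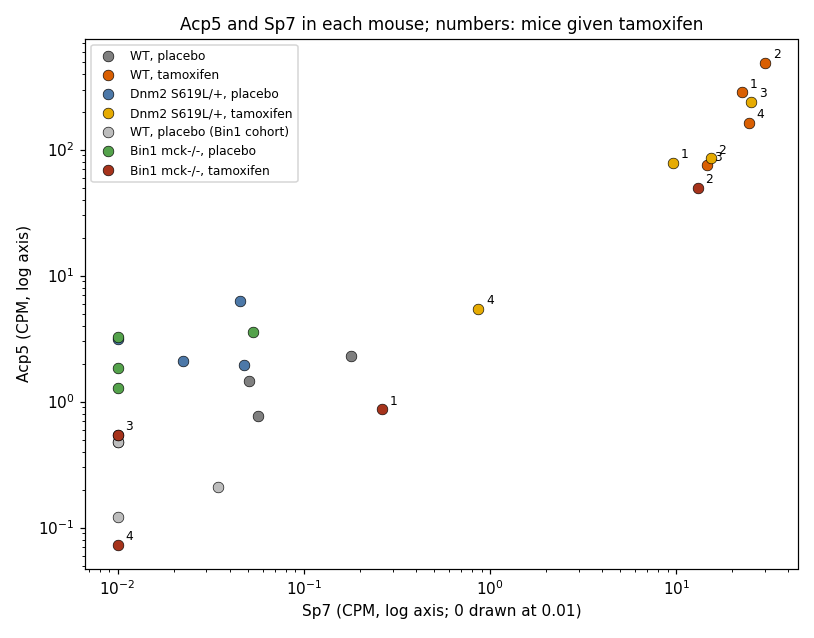
CPM of Acp5 against CPM of Sp7 in each of the 28 mice, both on log axes, with Sp7 values of 0 drawn at 0.01 and mouse numbers beside the mice given tamoxifen. The 4 WT tamoxifen mice, Dnm2 S619L/+ tamoxifen mice 1 to 3 and Bin1 mck-/- tamoxifen mouse 2 lie at Acp5 of 49.96 CPM or more and Sp7 of 9.57 CPM or more, and all other mice lie at Acp5 of 6.25 CPM or less.

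Macrophages share their precursors with osteoclasts, and 15 of their genes were read beside the members. Csf1r, the receptor for the growth factor of both, stands in this list and in that of the osteoclast pathway. EdgeR called 9 of 14 tested higher on tamoxifen in WT mice, beside 15.8% of all genes. It called 0 in Dnm2 S619L/+ mice, beside 5.22% of all genes, and none of the 14 had an adjusted p under 0.231 there. For the interaction 0 of these 14 were called. The summed level was 364, 503, 292 and 270.3 CPM in WT tamoxifen mice 1 to 4 and 202, 174, 200.2 and 118 CPM in WT placebo mice 1 to 4. In Dnm2 S619L/+ mice it was 309, 258, 162 and 553 CPM on placebo and 324, 419, 351 and 189 CPM on tamoxifen.

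Lyz2, a lysozyme, had the highest mean CPM of the macrophage genes over each cohort as a whole and was at 69.3 to 120.3 CPM in WT tamoxifen mice and 27.0 to 43.8 CPM in WT placebo mice. Cd68, a lysosomal protein that osteoclasts carry as well, had a log2 fold change of 2.49 ± 0.43 in WT mice (SE, adjusted p = 0.000944 by edgeR) and 0.69 ± 0.41 in Dnm2 S619L/+ mice (adjusted p = 0.301). On placebo 6 of 14 tested were called higher in Dnm2 S619L/+ mice, beside 21.9% of all genes called either way, and 1 without their placebo mouse 4. On placebo 5 of 14 were called higher in Bin1 mck-/- mice, beside 2.61% of all genes, and 9 without tamoxifen mouse 2. The part of macrophages in the levels of the members was not tested.

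Of 12 cartilage genes 7 were tested in the Dnm2 cohort. On tamoxifen 6 of these were called higher in WT mice, beside 15.8% of all genes. In Dnm2 S619L/+ mice 4 of these were, beside 5.22% of all genes, or 5 without tamoxifen mouse 4. Their sum was 570, 610, 286 and 296 CPM in WT tamoxifen mice 1 to 4 against 2.72 to 19.6 CPM in WT placebo mice, and 171, 341, 446 and 19.8 CPM in Dnm2 S619L/+ tamoxifen mice 1 to 4. Col11a1, a fibrillar collagen found in bone as well, had the highest mean CPM of the list over each cohort as a whole. Sox9 went from a mean of 5.71 to 4.64 CPM on tamoxifen in Dnm2 S619L/+ mice, and Matn1 was at 0 in all WT mice. Acan, the large proteoglycan of cartilage, had a log2 fold change of 6.46 ± 1.01 in WT mice (SE, adjusted p = 0.000477 by edgeR). Mouse 2 had a sum of 177 CPM in the Bin1 mck-/- tamoxifen group and the other 3 mice 4.71 to 12.8 CPM, and edgeR called 0 of 4 tested with or without mouse 2. Matn1 was at 0 in every mouse of the Bin1 cohort. On placebo 2 cartilage genes were called higher in Dnm2 S619L/+ and 1 in Bin1 mck-/- mice, Sox9 in both. EdgeR called 21.9% and 2.61% of all genes either way in these comparisons.

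Blood and marrow cells could come with bone or vessels, and their genes were mostly low. Of 14 neutrophil genes 4 were tested in the Dnm2 cohort and 3 in the Bin1 cohort, and 0 were called by edgeR in any of the 6 comparisons. Their sum was 3.68, 5.31, 13.9 and 3.69 CPM in WT tamoxifen mice 1 to 4 and 3.0 to 4.35 CPM in WT placebo mice, with Lcn2 at 1.77 to 5.65 CPM in the treated mice. In the Bin1 cohort the sum was 1.01 to 16.9 CPM, with S100a9 at 7.75 CPM in Bin1 mck-/- tamoxifen mouse 4 and at 1.42 CPM or less in the others, and Elane and Ly6g were at 0 in every mouse of that cohort. The part of neutrophils, a known source of Mmp9, in its level was not tested.

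Of 11 B cell genes only Ebf1 and Cd79b were tested, Rag2 was at 0 in all 28 mice, and Ebf1, which fat and stromal cells also use, made up 15.7 to 27.4 CPM of sums of 16.2 to 28.2 CPM in WT tamoxifen mice. Neither was called on tamoxifen in the Dnm2 cohort, and Cd79b was lower on tamoxifen in Bin1 mck-/- mice, with a log2 fold change of -2.15 ± 0.48 (SE, adjusted p = 0.0144 by edgeR). Of 8 T cell genes 3 were tested, and Cd4 rose on tamoxifen in WT mice by a log2 fold change of 3.86 ± 1.11 (SE, adjusted p = 0.0151 by edgeR), to 9.59, 11.6, 5.13 and 4.04 CPM of sums of 10.8, 12.8, 6.12 and 4.69 CPM in mice 1 to 4. The other 2 tested were not called there, with 1.17 for Trac (log2, adjusted p = 0.353 by edgeR) and -1.37 for Cd2 (adjusted p = 0.117), and Cd3d was at 1 count or less in WT tamoxifen mice. Trac and Cd2 were called higher in Dnm2 S619L/+ against WT mice on placebo, and 0 were called without the placebo mouse 4 that carried a T cell sum of 45.2 CPM. Whether T cells have a part in the level of Nfatc1 was not tested.

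Of 10 red cell genes 7 were tested, and those called higher on tamoxifen in WT mice included Slc4a1, the anion exchanger of the red cell membrane, at a log2 fold change of 2.24 ± 0.68 (SE, adjusted p = 0.0214 by edgeR). The sum of the list, led by the globin Hbb-bs, was 872, 2129, 2769 and 1339 CPM in WT tamoxifen mice 1 to 4 and 556, 367, 1306 and 1574 CPM in WT placebo mice 1 to 4, which overlapped. Alas2 was lower in Dnm2 S619L/+ against WT mice on placebo, at -1.36 ± 0.47 (SE, adjusted p = 0.0497 by edgeR), and 0 red cell genes were called in the other comparisons. Of 7 platelet genes 3 were tested, and Itga2b was called higher on tamoxifen in WT mice, at 0.91 ± 0.24 (SE, adjusted p = 0.00848 by edgeR), and on placebo in Dnm2 S619L/+ mice, at 1.23 ± 0.24 (adjusted p = 0.00175). Pf4 led their sums of 4.94 to 7.14 CPM in WT tamoxifen mice and 4.56 to 7.15 CPM in WT placebo mice. The part of these blood and marrow cells in the members' levels was not tested.

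The 12 muscle genes summed to 178510 to 210480 CPM in WT placebo mice of the Dnm2 cohort and to 138450 to 163560 CPM in WT tamoxifen mice, which did not overlap. Their median log2 fold change was -0.41 in WT mice, and the smallest adjusted p was 0.0528, for Tnnt3 (edgeR). Whether this fall is tied to the rise of the members was not tested. On tamoxifen edgeR called 0 of 12 in WT and Dnm2 S619L/+ mice and 1 higher in Bin1 mck-/- mice, Pvalb, a calcium buffer of fast fibres, at 1.33 ± 0.28 (SE, adjusted p = 0.0233 by edgeR). Without Dnm2 S619L/+ tamoxifen mouse 4 there were 2 lower in that genotype, and without Bin1 mck-/- tamoxifen mouse 2 there were 6 higher. On placebo Myh4 was lower in Dnm2 S619L/+ mice, at -0.75 ± 0.24 (SE, adjusted p = 0.033 by edgeR), and Pvalb in Bin1 mck-/- mice, at -1.12 ± 0.28 (adjusted p = 0.0498).

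Because members moved together, their promoters were read for sites of factors known in osteoclasts. RefSeq promoters on build GRCm38.p6, each of 300 bases from 250 before to 50 after a transcript start, were found for 5 of the 10 members, in 8 entries. Mmp9, Ocstamp, Dcstamp, Atp6v0d2 and Nfatc1 had no entry in the table used. The letters searched on both strands were GGAAA (the NFAT core), TGANTCA (AP-1), GAGGAA (the PU.1 core) and CANGTG (E-box forms that take in those read by MITF), of which GGAAA and GAGGAA can overlap. Of 32851 promoters of this length 61.3% held GGAAA, 7.81% TGANTCA, 28.3% GAGGAA and 44.9% CANGTG. Ctsk had 1 GGAAA and 2 GAGGAA, Oscar 4 GGAAA, 2 GAGGAA and 4 CANGTG, and the Acp5 entry shown 2 GGAAA and 1 CANGTG. The other entries of Acp5 each had 1 GGAAA, with 1 and 2 CANGTG, of the entries of Calcr 1 had 1 GGAAA and 1 CANGTG and the other none of the letters, Tnfrsf11a had 2 CANGTG alone, and TGANTCA was in none of the 8. These matches are letters in a window, not binding sites.

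The promoters of Acp5, Ctsk and Oscar are shown because all 3 genes rose on tamoxifen in WT and Dnm2 S619L/+ mice, 5′ to 3′ on the strand of the gene, with capitals at the matched letters on either strand.
Acp5, chr9:22130549-22130848, minus strand: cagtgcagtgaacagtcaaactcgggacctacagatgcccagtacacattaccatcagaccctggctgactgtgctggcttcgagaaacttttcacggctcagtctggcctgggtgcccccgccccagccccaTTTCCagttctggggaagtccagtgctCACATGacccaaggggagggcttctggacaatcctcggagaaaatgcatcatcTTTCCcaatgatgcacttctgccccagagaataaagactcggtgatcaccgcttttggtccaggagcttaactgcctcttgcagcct
Ctsk, chr3:95498960-95499259, plus strand: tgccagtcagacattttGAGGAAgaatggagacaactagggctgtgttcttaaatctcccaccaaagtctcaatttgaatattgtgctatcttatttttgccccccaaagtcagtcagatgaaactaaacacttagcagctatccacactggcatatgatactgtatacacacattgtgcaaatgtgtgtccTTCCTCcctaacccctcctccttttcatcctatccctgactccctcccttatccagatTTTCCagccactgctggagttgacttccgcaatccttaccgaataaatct
Oscar, chr7:3616108-3616407, minus strand: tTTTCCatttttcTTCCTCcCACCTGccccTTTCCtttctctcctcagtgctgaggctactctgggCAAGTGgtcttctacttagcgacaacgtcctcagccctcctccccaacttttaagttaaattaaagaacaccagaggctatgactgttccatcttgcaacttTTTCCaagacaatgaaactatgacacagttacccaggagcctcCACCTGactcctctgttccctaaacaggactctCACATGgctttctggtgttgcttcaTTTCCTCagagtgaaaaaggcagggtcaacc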

How the data were processed

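Per the submitters' processing notes, the deposited count tables were made before deposit by the authors with bcl2fastq 2.20.0.422, cutadapt 1.10, Bowtie 1.2.2, STAR 2.5.3 and HTSeq 0.6.1p1 on build mm39, from stranded poly(A) libraries; the role of each tool is not spelled out there. The raw counts of genes were used as they are. The Bin1 table also held 4 lines that are not genes, with 22.0% to 30.8% of all counts of a library (median 23.9%), which were left out of the totals. Symbols were matched for 52083 of the 55359 genes found in both.

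Each cohort was fitted alone in edgeR 4.0.16 (R 4.3.3, limma 3.58.1) with TMM scaling, the filter on low counts by group, robust quasi-likelihood and Benjamini-Hochberg adjustment over 15439 genes in the Dnm2 cohort and 14841 in the Bin1 cohort. A prior count of 2 went into each log2 fold change, and the SE is the size of the fold change without that prior divided by the root of F. DESeq2 1.42.0 was the other tool, and Python 3.11.15 with numpy 2.4.6 and pandas 2.3.3 made the tables. Other alternatives were RLE scaling, no filter on low counts, only the groups compared, a replicate block and leaving out each mouse. The 10 members and the 10 lists were chosen with earlier results of these data known. Further genes were named by fixed rules: the 3 smallest p of a list per comparison, the gene of a list with the highest mean CPM over a cohort, genes at 0 in all mice, and the 5 genes most like the members. Ratios between genes were chosen after their values were seen.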

Additional observations from a re-analysis of the deposited data

Results flagged for a closer look

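Every group of 4 mice was screened for a value far from the other 3 by the share of its gap in the range. For independent, normally spread values this happens in about 1 in 20 groups, but members share libraries and many levels were near 0. That rate cannot be applied here. Such a value was found in 8 of 70 groups. In Bin1 mck-/- tamoxifen mouse 2 these were Acp5 at 50.0 CPM, Ctsk at 89.6 CPM, Mmp9 at 34.0 CPM and Dcstamp at 0.516 CPM. The others were Calcr at 0.731 CPM in WT mouse 6 of the Bin1 cohort, Calcr at 0.0966 CPM in Bin1 mck-/- placebo mouse 2, Dcstamp at 0.673 CPM in Dnm2 S619L/+ placebo mouse 4 and Nfatc1 at 103.0 CPM in WT placebo mouse 4 of the Dnm2 cohort.

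Tnfrsf11a moved in opposite directions with every mouse outside the placebo range. The rise in WT mice was called, but the fall in Bin1 mck-/- mice was not (adjusted p = 0.0787 by edgeR). The ratio of mean CPM on tamoxifen to that on placebo was 5.324 in WT mice of the Dnm2 cohort and 0.3806 in Bin1 mck-/- mice. The Bin1 mck-/- placebo mean, 1.53 CPM, was above the 0.614 CPM of WT mice of that cohort, and the tamoxifen mean was 0.582 CPM. The difference between these cohorts was not tested.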

How the results depend on the processing

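With 4 mice per group, the counts of called members varied with the choices made, and causes were not tested. On tamoxifen in WT mice it was 8 under every alternative and 8 to 8 with a mouse left out. In Dnm2 S619L/+ mice it was 6 under RLE scaling, 5 without the filter, 0 with only the groups compared, 5 with the replicate block, 8 in DESeq2 and 4 to 9 with a mouse left out. For the interaction it was 0 throughout. On placebo it was 1 to 1 with a mouse left out in Dnm2 S619L/+ mice, 2 with only the groups compared and 2 in DESeq2. In Bin1 mck-/- mice on placebo it was 3 with only the groups compared, 3 in DESeq2 and 0 to 3 with a mouse left out. On tamoxifen in Bin1 mck-/- mice it was 0 with the replicate block, 2 in DESeq2 and 1 to 2 with a mouse left out. Calcr had 3.12 with the replicate block (edgeR, adjusted p = 0.0586, with 5.13e-05 to 0.0586 over the alternatives). Calls over all genes moved as well. On tamoxifen in Dnm2 S619L/+ mice 806 of 15439 genes were called higher in the fit used above. That became 20 of 14310 with only the groups compared, 1138 of 15406 in DESeq2, and 287 to 1594 with a mouse left out. In Bin1 mck-/- mice on placebo 295 were higher and 93 lower of 14841. With only the groups compared these were 921 and 537 of 14376, and in DESeq2 772 and 419 of 14795. The replicate block paired mice of the same number, in the Bin1 cohort between Bin1 mck-/- groups only, and such pairs had r of -0.2078 to 0.1555, all 4 above 0 on placebo in Dnm2 S619L/+ against WT mice. The replicate block turned the log2 fold change of Acp5 to -0.998 and that of Ctsk to -0.049 on tamoxifen in Bin1 mck-/- mice. Leaving out mice gave log2 ranges that crossed 0 for Nfatc1 in WT mice (-0.22 to 0.22), Mmp9 on placebo (-0.45 to 0.38 in Dnm2 S619L/+, -0.19 to 0.60 in Bin1 mck-/-), Nfatc1 in Bin1 mck-/- on placebo (-0.10 to 0.18) and, on tamoxifen in Bin1 mck-/- mice, Acp5 (-2.22 to 2.75), Ctsk (-1.20 to 1.54), Mmp9 (-0.29 to 3.61), Oscar (-0.55 to 0.96) and Nfatc1 (-0.18 to 0.063). The low ends on tamoxifen in Bin1 mck-/- mice, but for Nfatc1, came without mouse 2. The mean difference of Dcstamp ran from 0.0408 to 0.104 on placebo and from -0.0819 to 0.0900 CPM on tamoxifen in the Bin1 cohort. DESeq2 gave no adjusted p for Acp5 and Mmp9 in either Bin1-cohort comparison.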
